A study of Mus musculus with 24 samples.

Results

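The genes described here belong to the growth hormone axis of the mouse liver and to the major urinary proteins that the axis controls. The 10 genes were chosen by name: the growth hormone receptor Ghr, the transcription factor Stat5b, the feedback inhibitors Socs2 and Cish, the circulating growth factor Igf1 and its binding partner Igfals, the repressors Bcl6 and Cux2, and the urinary protein genes Mup3 and Mup20. All 10 were found among the 21755 genes of the p16-3MR table, and 5 of the 10 (Stat5b, Cish, Cux2, Mup3 and Mup20) could be matched to a single symbol among the 12643 labels of the wild-type table, whose labels lack several lower-case letters.

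Growth hormone binds its receptor on hepatocytes and activates the kinase JAK2, which phosphorylates STAT5B. STAT5B then enters the nucleus and switches on Igf1, Igfals, Socs2 and Cish, and the last of these act back on the pathway as inhibitors. In mice the hormone is released in pulses in males and almost continuously in females, and this difference sets many sex-biased liver genes. CUX2 is a female-specific repressor of male-biased genes in mouse liver, BCL6 is a male-biased repressor of female-biased genes, and MUP20, also called darcin, is a male pheromone protein that the liver makes and the kidney excretes.

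Liver RNA from 24 mice was measured with Smart-3SEQ, which reads the 3′ ends of transcripts. In 12 p16-3MR mice, a transgene under p16 regulatory sequence carries a viral thymidine kinase, so that ganciclovir (GCV) kills cells that express it. These made 4 groups of 3 livers: VEH-treated females (livers 27, 28 and 29), GCV-treated females (31, 33 and 35), VEH-treated males (24, 25 and 26) and GCV-treated males (30, 32 and 34). Another 12 mice were wild-type and lack the transgene, again with 3 livers in each of the same 4 groups (numbers 4 to 6 in females and 1 to 3 in males). GCV was given into the peritoneum on 5 consecutive days each month in water of pH 11, which alone served as the vehicle (VEH), at 150 mg/kg by the sample labels and at a lower dose by the study's methods. Treatment of p16-3MR mice began at 16 to 18 months of age, with collection at about 28 months, and that of wild-type mice began at 6 months, with collection after 3 months. Because genotype, age, length of treatment and labelled batch (batch 1 for p16-3MR, batch 2 for wild-type) all differ between the tables, their parts cannot be told apart, and no test was made between them.

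Total counts ranged from 5005760 to 7160172 per p16-3MR liver and from 3084517 to 5667904 per wild-type liver. Liver 33, a GCV-treated p16-3MR female, stood apart from the other libraries: 64.0% of its counts came from mitochondrially encoded genes, against 12.3% to 22.4% in the other p16-3MR livers, and its TMM scaling factor was 0.259. All 10 hepatocyte markers were detected, and their summed level ranged from 115145 to 170708 CPM (counts scaled to a common library size by TMM) in p16-3MR females and from 40169 to 119527 CPM in males. The lowest sums were those of males 32 (40169 CPM) and 24 (58718 CPM), which also had the highest summed levels of the 9 Kupffer cell markers, 5042 and 2701 CPM against 157 to 1434 CPM in the other 10 livers. Values without these libraries are given beside the results they moved most. In wild-type livers, 3 of the hepatocyte markers could be matched, with sums from 25364 to 30786 CPM.

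Regulatory sequence near the members was examined for the spaced palindrome TTCNNNGAA that STAT5 recognises, which reads the same on both strands. RefSeq promoter windows (GRCm38.p6, 250 bases before to 50 after each start) matched 8 of the 10 members, and Socs2 and Mup20 had none. The motif occurred in 5 of the 14 windows of these members, against 8.3% of all 32851 windows. Those 5 windows belonged to Cish, Bcl6 and Igfals. None of the 14 windows of Mup genes held it. The stretches below show the pair of motifs at the Cish start, the 3 motifs of the inner Bcl6 window and the motif nearest an Igfals start, since Cish and Igfals are known targets of STAT5B and Bcl6 encodes a repressor of the same gene network. Capitals mark the motif, and each stretch is written 5′ to 3′ on the strand of the gene.
Cish, chr9:107296654-107296683, plus strand: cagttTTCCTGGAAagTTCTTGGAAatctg
Bcl6, chr16:23981433-23981461, minus strand: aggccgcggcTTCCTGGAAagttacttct
Bcl6, chr16:23981387-23981415, minus strand: ggcaggagtgTTCTGTGAAatccttagag
Bcl6, chr16:23981353-23981381, minus strand: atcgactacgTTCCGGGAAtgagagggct
Igfals, chr17:24878163-24878191, plus strand: ctgccaggtgTTCCTAGAAgaggccctgg
The first Cish motif begins at the RefSeq start and the other 11 bases after it, within an annotated Cish exon in GENCODE that also lies inside the gene model Gm17040. The Bcl6 motifs begin 168, 122 and 88 bases before a start inside the gene, in an intron. The Igfals motif begins 58 bases before one of its starts and overlaps no annotated exon. No match in a window says only that these letters are absent there.

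Females and males of the p16-3MR strain were compared first, over both treatments. Of the 10 members, 2 passed the test (edgeR quasi-likelihood, Benjamini-Hochberg adjusted over all genes), Cux2 upward in females and Mup20 downward, while 0.303% of all genes passed (0.188% higher and 0.115% lower in females). Mup20 (chr4:62050234-62054158, minus strand, GRCm38) stood at 9.11, 7.52 and 6.80 CPM in VEH-treated females and at 12.5, 2.32 and 9.06 CPM in GCV-treated females. In VEH-treated males it stood at 2739, 11523 and 6501 CPM, and in GCV-treated males at 460, 61.3 and 2356 CPM. Every male liver was above every female liver, which 0.616% of all genes showed in either direction. The mean was 7.89 ± 3.37 CPM in females and 3940 ± 4363 CPM in males (SD, n = 6), and the log2 fold change, females minus males, was -8.32 (SE 0.96, adjusted p = 0.000731). Without livers 24, 32 and 33 it was -8.59, and over all alternatives it ranged from -8.60 to -7.38 and passed in each. In bulk tissue, fewer cells of a type and less RNA per cell cannot be told apart.

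Within treatments, the difference in Mup20 was -9.79 (SE 1.44, adjusted p = 0.0116) between VEH-treated females and males, where 0.12% of all genes passed (0.0827% higher and 0.0368% lower, 26 genes in all and 17 without male 26). Leaving out any VEH-treated female raised that adjusted p to between 0.108 and 0.112. Between GCV-treated females and males it was -6.85 (SE 1.28, adjusted p = 0.0946), and no member passed there, against 0.0965% of all genes (0.0781% higher and 0.0184% lower, 21 genes in all and 7 without male 30). There 5 members had an unadjusted p under 0.05, as did 1830 of the 21755 genes (848 without male 32). DESeq2 called 2 members and 131 genes in all. In edgeR, Mup20 passed without liver 32 at -7.41 (adjusted p = 0.00754). With all livers, limma-voom with sample quality weights called 1 member, lower in females. So did edgeR at an adjusted p under 0.1. Between GCV-treated livers, female minus male medians were -3.01 for Kupffer cell markers, -2.86 for T cell markers and 2.66 for mitochondrially encoded genes. Between VEH-treated livers they were -0.40, 0.29 and -0.0023. None of these genes was called, and their part was not tested.

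**Figure D1:**
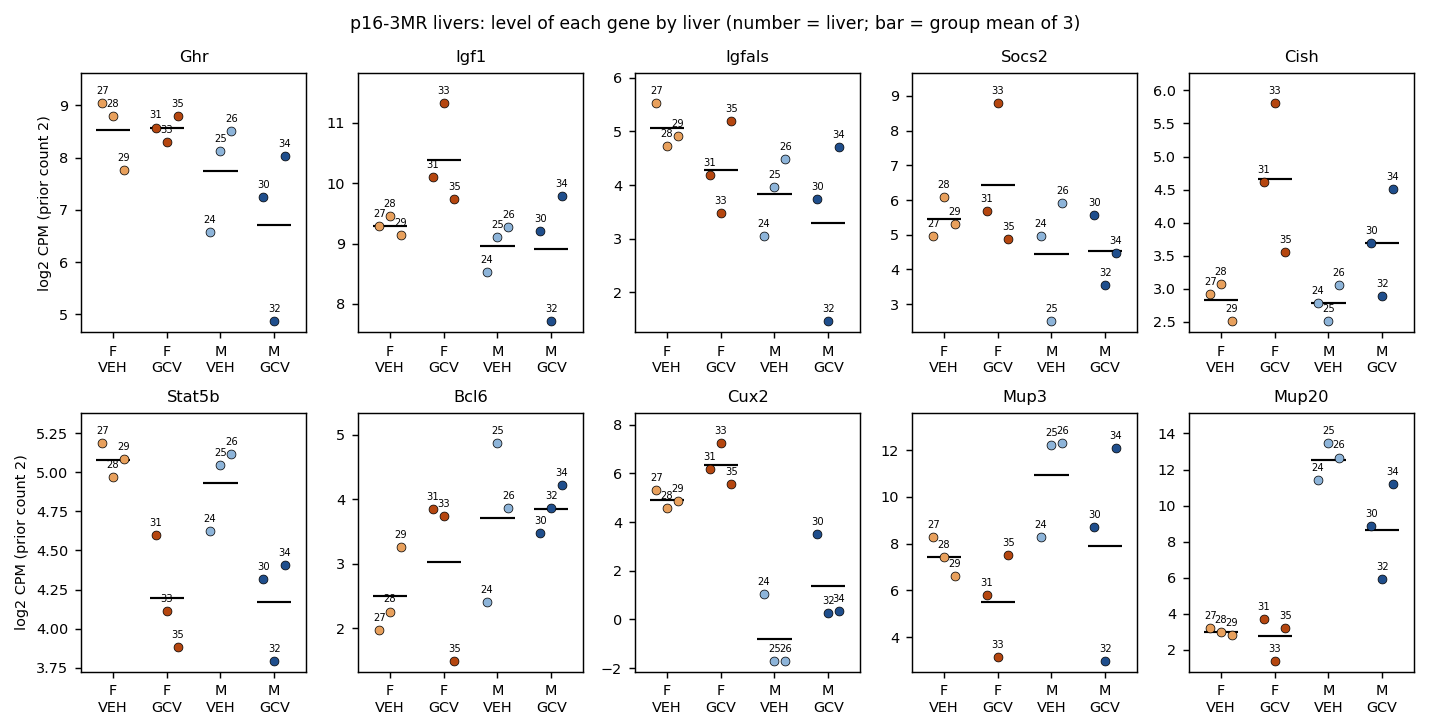
Level of each of the 10 genes in the 12 p16-3MR livers, as log2 CPM with a prior count of 2, by sex and treatment. Points are livers with their numbers and bars are means of 3. Mup20 separates males from females, Cux2 separates them in the other direction, and liver 33 holds the highest Igf1, Socs2, Cish and Cux2.

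Mup3 (chr4:62083476-62087342, minus strand) encodes another urinary protein of the same gene cluster. It stood at 314, 172 and 96.9 CPM in VEH-treated females and at 54.8, 8.50 and 184 CPM in GCV-treated females. Males spread far more widely, with 314, 4826 and 5107 CPM after VEH and 413, 7.61 and 4300 CPM after GCV. Male 24 thus stood level with the highest female and male 32 below the lowest, so that the groups overlapped. The log2 fold change of -4.19 (SE 1.17) did not pass in edgeR (adjusted p = 0.364). It passed in DESeq2 at -4.20 (adjusted p = 0.00195), in limma-voom with sample quality weights at -3.53 (adjusted p = 0.0456), and in edgeR without livers 24, 32 and 33 at -4.48 (adjusted p = 0.00114).

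Most of the remaining Mup genes are near-identical copies of one another (exceptions include Mup21, 46.3% identical to its nearest relative over the last 300 bases), and reads from their 3′ ends can be divided between copies. Over the last 300 bases of the transcript, Mup20 was 92.7% identical to its nearest relative Mup4, and Mup3 was 80% identical to Mup5. Pairs such as Mup1 and Mup19 or Mup2 and Mup10 were 100% identical, so the levels of single central genes are uncertain. Of the 21 Mup genes in the p16-3MR table, 1 passed between the sexes, Mup20, and 5 passed (all lower in females) without livers 24, 32 and 33. Of all 21755 genes, 66 passed with all livers and 178 without these 3.

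Taken as a family, Mup genes made up a widely varying share of the counts of p16-3MR livers. VEH-treated females had 0.865%, 0.0561% and 0.158%, and GCV-treated females had 3.45%, 0.00140% and 0.0463%. VEH-treated males had 0.54%, 2.94% and 2.73%, and GCV-treated males had 0.123%, 0.0127% and 2.34%. Female 31 therefore had the highest share of all 12 livers and male 32 the second lowest after female 33, and the sexes overlapped in this share.

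Mup20 and the central Mup genes parted in some livers. Female 31 had 17874 CPM of Mup14, one of the central genes, and 12.5 CPM of Mup20. Male 24 had 134 CPM of Mup14 and 2739 CPM of Mup20. As a share of all Mup counts, Mup20 held 0.0309% to 4.29% in the 6 females and 9.38% to 87.2% in the 6 males, with no overlap. The highest shares were those of males 32 (87.2%) and 24 (83.5%), whose Mup genes took 0.0127% and 0.54% of all counts.

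**Figure D2:**
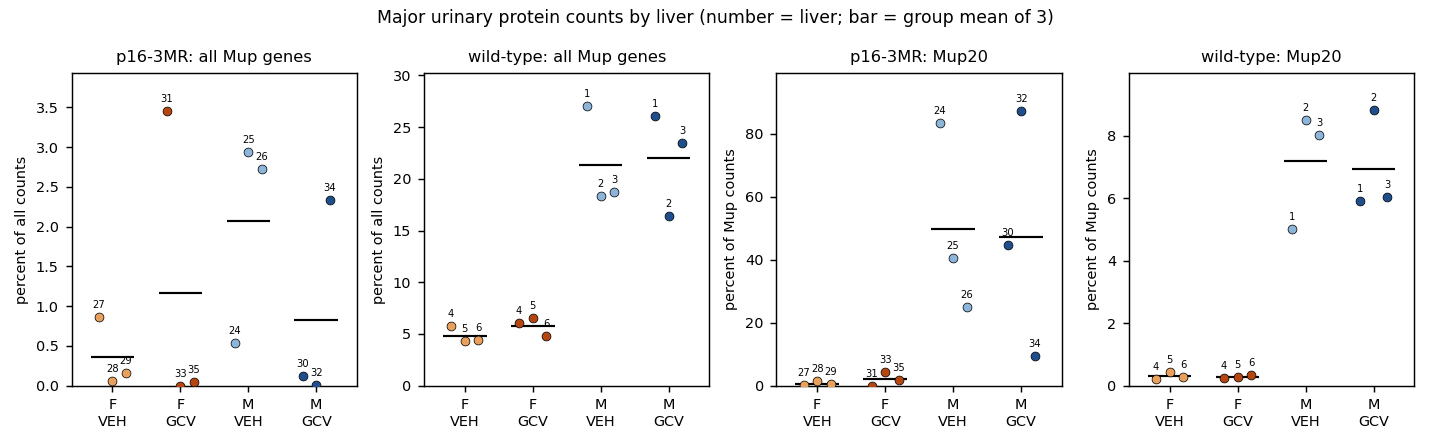
Share of all counts taken by the Mup genes (left pair) and share of Mup counts taken by Mup20 (right pair), in percent, for each p16-3MR and wild-type liver. Points are livers with their numbers and bars are means of 3. In p16-3MR livers the total share overlaps between the sexes while the Mup20 share does not, and in wild-type livers both separate males from females.

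Cux2 (chr5:121856366-122050102, minus strand) was the member that rose in females. VEH-treated females had 39.9, 23.7 and 28.7 CPM, and GCV-treated females had 71.9, 154 and 46.5 CPM. VEH-treated males had 1.75, 0 and 0 CPM, and GCV-treated males had 10.99, 0.878 and 0.96 CPM. The male values rest on few reads, since the floor of 3 counts lay between 0.293 and 0.576 CPM in males and male 30 had 78 counts against 0 to 15 in the other males. The sexes did not overlap, and the log2 fold change was 4.95 (SE 0.79, adjusted p = 0.0107), or 6.92 without livers 24, 32 and 33. Leaving out male 24 alone gave 7.45, the other VEH-treated males having no count. Within treatments, Cux2 was at 5.51 (adjusted p = 0.171) after VEH and at 4.39 (adjusted p = 0.383) after GCV in edgeR. The difference after VEH passed without male 24 (adjusted p = 0.0406) or male 30 (adjusted p = 0.0488). In DESeq2 the same differences were 5.58 (adjusted p = 0.000930) and 4.44 (adjusted p = 0.0168).

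Bcl6 (chr16:23965052-23988852, minus strand), the counterpart repressor, was measured at low level. Females had a lowest value of 2.52, a median of 6.90 and a highest value of 14.1 CPM, and males had 5.02, 14.2 and 29.1 CPM. The ranges overlapped, and the difference of -1.02 on the log2 scale (SE 0.47) did not pass (adjusted p = 0.686). With single livers left out it ranged from -1.29 to -0.65.

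The receptor and its transcription factor did not pass between the sexes either. Ghr (chr15:3317760-3583492, minus strand) ranged from 216 to 527 CPM in females, with a median of 412 CPM, and from 28.8 to 363 CPM in males, with a median of 207 CPM. Its log2 fold change was 1.03 (SE 0.49, adjusted p = 0.686), and 0.64 without livers 24, 32 and 33, the 2 lowest values being those of males 32 and 24. Stat5b (chr11:100780731-100850724, minus strand) ranged from 14.4 to 36.2 CPM in females and from 13.6 to 34.4 CPM in males, with a difference of 0.09 (SE 0.22, adjusted p = 1.00).

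Igf1 (chr10:87858265-87937042, plus strand), the main endocrine product of the pathway, had a median of 778 CPM in females and 571 CPM in males. Female 33 was highest at 2564 CPM and male 32 lowest at 209 CPM. The log2 fold change was 0.86 (SE 0.43, adjusted p = 0.686), and 0.25 without livers 24, 32 and 33. Igfals (chr17:24865997-24882010, plus strand), which holds circulating IGF1 in a stable complex, ranged from 10.8 to 45.7 CPM in females and from 2.44 to 25.7 CPM in males, with a difference of 0.93 (SE 0.47, adjusted p = 0.687).

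The feedback inhibitors varied widely among females. Socs2 (chr10:95385362-95417180, minus strand), which marks signalling components for degradation, ranged from 28.8 to 442 CPM in females and from 5.36 to 59.6 CPM in males. Its difference of 1.61 (SE 0.68, adjusted p = 0.685) dropped to 0.54 without liver 33, where the highest value was found. Cish (chr9:107296026-107302784, plus strand), which competes for STAT5 docking sites on the receptor, ranged from 5.41 to 55.6 CPM in females and from 5.36 to 22.5 CPM in males, with a difference of 0.57 (SE 0.38, adjusted p = 0.729). This was 0.20 without liver 33 and 0.025 without livers 24, 32 and 33.

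No marker of any cell type examined passed between the sexes in these livers. All 9 Kupffer cell markers had negative log2 fold changes (median -1.78, lowest adjusted p = 0.606), and their sums ranged from 157 to 1259 CPM in females and from 223 to 5042 CPM in males. All 8 T cell markers were also negative (median -1.13), all 13 mitochondrially encoded genes were positive (median 1.36, none called), and the 10 hepatocyte markers had a median of 0.39. Without livers 24, 32 and 33 these medians were -0.057 for Kupffer cell markers, 0.073 for T cell markers, -0.055 for mitochondrially encoded genes and 0.14 for hepatocyte markers. Their part in the results above was not tested, beyond the values without livers 24, 32 and 33.

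Wild-type livers gave the same comparison in younger mice, with a common biological coefficient of variation of 16.6% against 55.8% in p16-3MR livers. Of the 5 matched members, 3 passed: Cux2 upward in females, and Mup3 and Mup20 downward, where 7.94% of all genes passed (3.89% higher and 4.05% lower). Mup20 stood at 114, 161 and 110 CPM in VEH-treated females and at 125, 152 and 145 CPM in GCV-treated females. In VEH-treated males it stood at 16234, 16885 and 16503 CPM, and in GCV-treated males at 18276, 14805 and 16390 CPM. The groups were far apart, with a log2 fold change of -6.94 (SE 0.11, adjusted p = 2.92e-21). Among matched cell-type markers, 2 of 4 stellate cell markers passed upward in females. Of 3 hepatocyte markers 1 passed upward and 1 downward, as did 1 each of 11 mitochondrially encoded genes. No Kupffer cell, T cell, B and plasma cell, endothelial or cholangiocyte marker passed. The part of these genes in the results was not tested.

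Mup3 in wild-type livers ranged from 2326 to 3230 CPM in females and from 7831 to 10859 CPM in males. The difference was -1.80 (SE 0.07, adjusted p = 6.47e-14) with no overlap, which 4.77% of all genes showed. Cux2 ranged from 7.22 to 39.2 CPM in females and from 0 to 1.53 CPM in males, where no liver had more than 5 counts, and differed by 5.43 (SE 0.49, adjusted p = 6.16e-08). The same 3 members passed after VEH alone (3.82% of all genes, 1.82% higher and 2% lower) and after GCV alone (3.24% of all genes, 1.66% higher and 1.58% lower). Stat5b was at 0.31 (SE 0.11, adjusted p = 0.105), and it passed without VEH-treated female 4 (adjusted p = 0.0419), while Cish was at -0.05 (SE 0.39, adjusted p = 1.00).

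**Figure D3:**
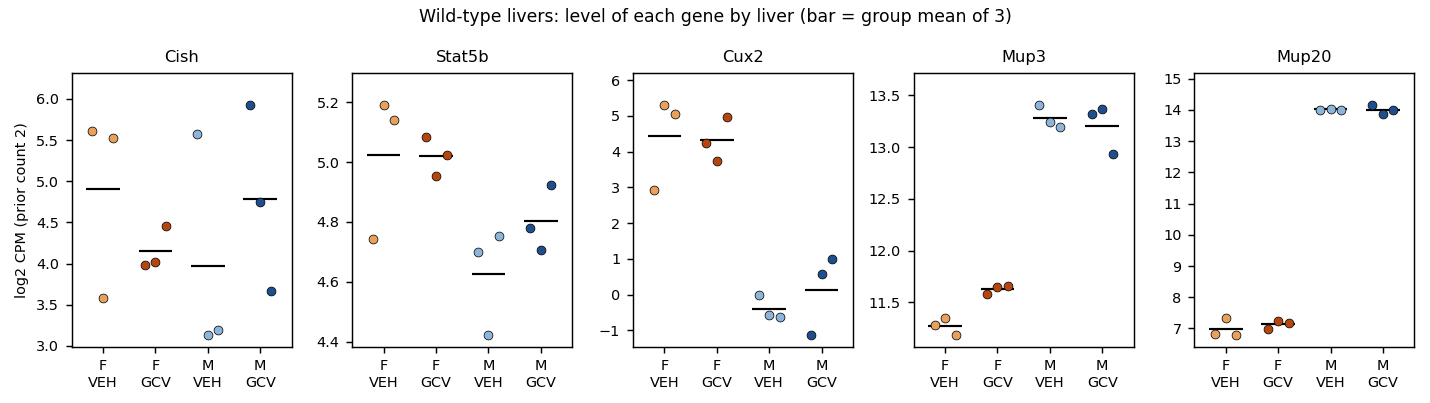
Level of the 5 matched genes in the 12 wild-type livers, as log2 CPM with a prior count of 2, by sex and treatment. Points are livers and bars are means of 3. Mup20, Mup3 and Cux2 separate the sexes, Stat5b and Cish overlap, and Mup3 in GCV-treated females lies above VEH-treated females.

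As a family, Mup genes took 4.29% to 6.50% of counts in wild-type females and 16.4% to 27.1% in wild-type males. Of the 22 Mup genes tested, 21 were lower in females, and 19 of these passed. The other was Mup5, which passed upward (0.96, SE 0.24, adjusted p = 0.0123). It had 4.74 to 9.40 CPM in females and 2.75 to 4.37 CPM in males. Mup20 held 0.22% to 0.427% of Mup counts in females and 5.01% to 8.81% in males. The largest differences among the other family members were those of Mup7 (-9.05, adjusted p = 6.55e-21), Mup1 (-7.45, adjusted p = 1.85e-17) and Mup12 (-6.63, adjusted p = 1.22e-18), again subject to the division of reads between copies.

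**Figure D4:**
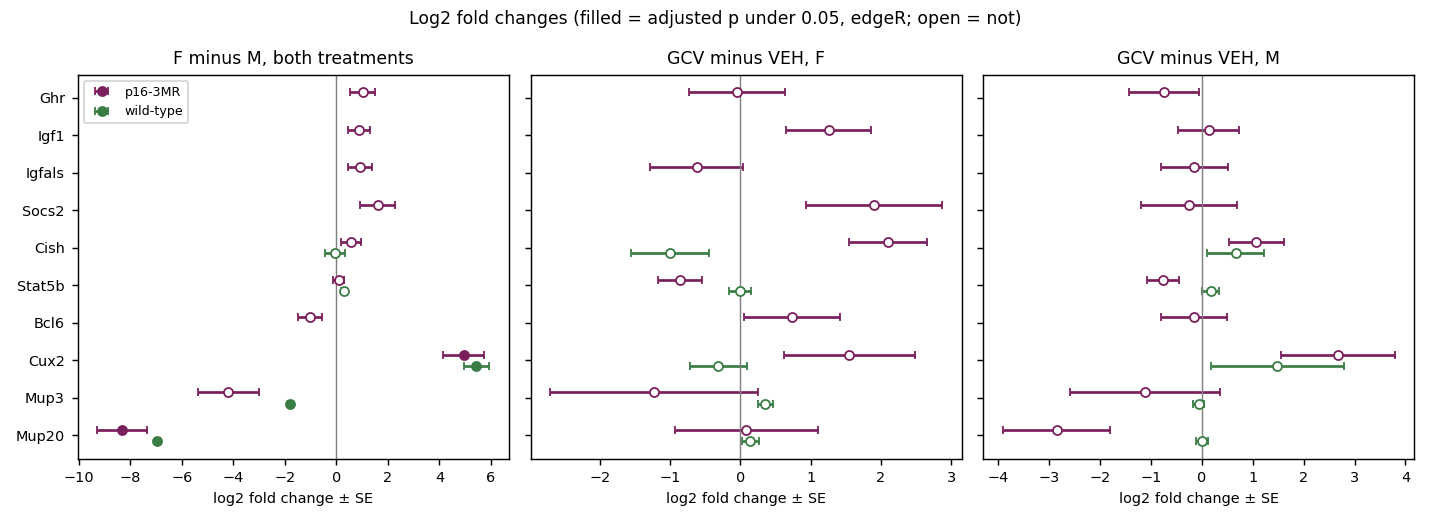
Log2 fold change of each gene with its standard error in p16-3MR and wild-type livers, for females minus males over both treatments and for GCV minus VEH in each sex. Filled points passed at an adjusted p under 0.05 in edgeR. Cux2 and Mup20 are filled in both tables between the sexes, Mup3 in wild-type livers alone, and none is filled for GCV.

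A further 5 wild-type labels match a member and at least 1 further symbol, and are given as labels because they cannot be assigned. The label Ghr, with 3 candidate symbols, had -0.26 (SE 0.07, adjusted p = 0.0153), and the label If1, with 5 candidates including Igf1, had 0.38 (SE 0.08, adjusted p = 0.00183). The label Ifa, whose 2 candidates include Igfals, had 0.70 (SE 0.08, adjusted p = 5.22e-06). In the p16-3MR table the member held 99.98%, 99.7% and 100% of the candidates' counts for these labels. For the label Bc6 (-1.54, SE 0.31, adjusted p = 0.00193) Bcl6 held 85.0% of the candidates' counts, and for the label Sc2 (0.54, SE 0.09, adjusted p = 0.000355) Socs2 held 42.2%.

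Genes around the axis were described from lists of known pathway members and sex-biased liver genes, some of which include members. All 33 female-biased genes tested in p16-3MR livers had positive log2 fold changes, females minus males, and 18 of them passed. Their median was 3.97, against -0.07 over all genes. Of 28 male-biased genes, 27 were negative and 1 positive, with a median of -2.28, and 7 passed downward and 0 upward. Without livers 24, 32 and 33 the counts that passed were 26 and 14, while those of all 21755 genes went from 66 to 178. The genes with the largest rise were the cytochrome P450 genes Cyp3a41b (12.58, SE 1.16) and Cyp3a41a (12.05, SE 1.04), which are near-identical copies, the sulfotransferase gene Sult2a1 (12.13, SE 0.78) and A1bg (10.32, SE 1.13). Those with the largest fall were Cyp4a12a (-8.91, SE 1.49), a fatty acid hydroxylase gene with a near-identical neighbour, the organic anion transporter gene Slco1a1 (-8.33, SE 1.30), Mup20, and Scara5 (-5.77, SE 0.78).

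In wild-type livers, 24 of 24 female-biased genes passed upward in females, with a median of 6.51 against 0.03 over all genes. All 20 male-biased genes were negative, with a median of -5.37, and 19 of them passed. The largest were Cyp3a41b (8.57, SE 1.89), Sult3a1 (7.79, SE 0.28), Sult3a2 (7.71, SE 0.67) and Cyp3a44 (7.57, SE 0.33) upward, and Cyp4a12a (-9.48, SE 0.25) and Cyp4a12b (-9.18, SE 0.23) downward.

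The pathway's own components are read here against the 0.303% of all p16-3MR genes and 7.94% of all wild-type genes that passed between the sexes. Of 19 genes of growth hormone and prolactin receptor signalling, 0 passed in p16-3MR livers by edgeR (1 in DESeq2), with a median of 0.07. In wild-type livers 2 of 12 passed, both upward in females. One of them was the prolactin receptor gene Prlr at 2.45 (SE 0.11, adjusted p = 4.20e-13). In p16-3MR livers Prlr was at 2.93 (SE 0.60, adjusted p = 0.0732). Of the IGF system genes (ligands, receptors and binding proteins), 0 of 18 passed in p16-3MR and 0 of 11 in wild-type livers in edgeR and in DESeq2. The wild-type count leaves out Igf1 and Igfals, whose shared labels If1 and Ifa passed as given above. After GCV alone 1 of the 11 passed, Igfbp5 (1.05, SE 0.29, adjusted p = 0.0484), which is named after its value was seen.

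Among the regulators of sex-biased genes, 2 of 18 passed in p16-3MR livers, Cux2 and Trim24 (1.48, SE 0.25, adjusted p = 0.0187), a transcriptional cofactor gene. In wild-type livers 5 of 11 passed: Cux2, Trim24 (1.84, SE 0.13), the nuclear receptor gene Nr1i3 (0.54, SE 0.14) and the forkhead factor gene Foxa2 (0.47, SE 0.12) upward in females, and Zfp809 (-0.74, SE 0.21), a zinc finger gene, downward.

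**Figure D5:**
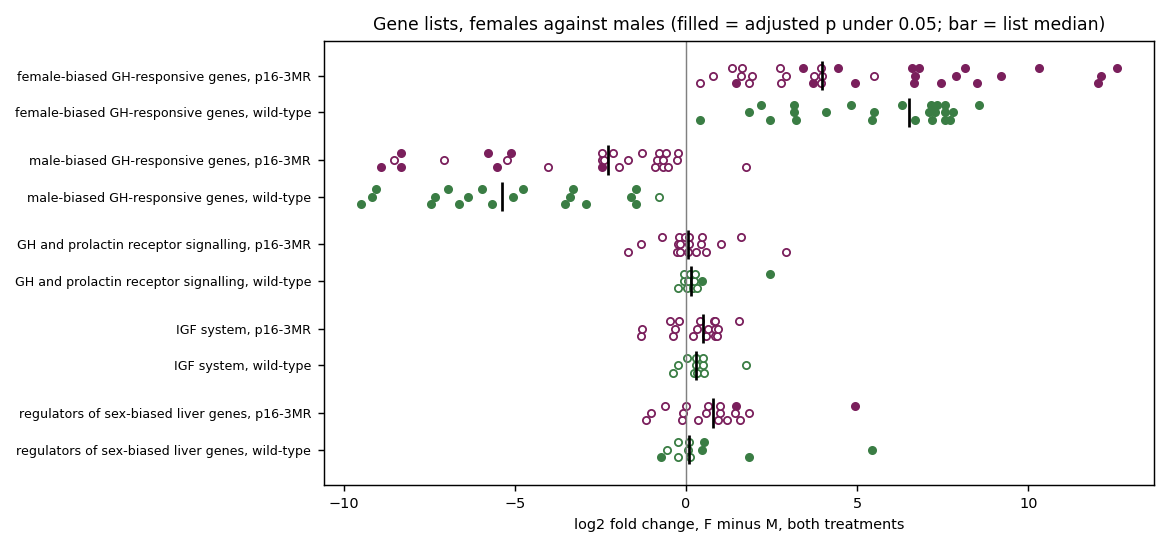
Log2 fold change, females minus males over both treatments, of every gene tested from 5 lists in p16-3MR and wild-type livers. Filled points passed at an adjusted p under 0.05 in edgeR and bars are list medians. Female-biased genes lie to the right in both tables and male-biased genes to the left, with the exception of 1 male-biased gene in p16-3MR livers, while receptor signalling, IGF system and regulator genes lie on both sides of 0, with p16-3MR medians of 0.07, 0.50 and 0.79.

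Treatment was examined next, since GCV removes p16-expressing cells in p16-3MR mice. In females, no member passed in edgeR and neither did any other gene (0% of all genes). An unadjusted p under 0.05 was found for 1603 genes, and for 933 without female 29 and 2704 without female 35. DESeq2 called 86 genes, 1 of them a member. That member was Cish, with 7.24, 8.10 and 5.41 CPM after VEH and 24.1, 55.6 and 11.4 CPM after GCV. All GCV values were above all VEH values. Its log2 fold change was 2.10 (SE 0.55, adjusted p = 0.646) in edgeR and 2.16 (SE 0.60, adjusted p = 0.0462) in DESeq2. Without liver 33 it was 1.29 in edgeR (adjusted p = 0.842).

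Besides Cish, 3 members did not overlap between VEH- and GCV-treated females, and 13.3% of all genes did not. Igf1 had 629, 701 and 565 CPM after VEH and 1105, 2564 and 855 CPM after GCV, a difference of 1.25 (SE 0.61, adjusted p = 0.670), which was 0.57 without liver 33. Cux2 was at 1.55 (SE 0.93, adjusted p = 0.689), and at 0.88 without liver 33. Stat5b had 36.2, 30.96 and 33.6 CPM after VEH and 23.9, 17.0 and 14.4 CPM after GCV, a difference of -0.86 (SE 0.31, adjusted p = 0.653), which was -0.87 without liver 33. Thus the Stat5b values were lower in all 3 GCV-treated livers, and this did not rest on liver 33, but none of these differences passed.

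Socs2 showed how far liver 33 set the values of GCV-treated females. It had 31.1, 68.1 and 39.3 CPM after VEH and 50.7, 442 and 28.8 CPM after GCV, for a difference of 1.90 (SE 0.96, adjusted p = 0.673). Without liver 33 the difference was -0.28. The other 5 members lay between -1.23 (Mup3) and 0.73 (Bcl6), and with single livers left out Mup3 ranged from -2.59 (without female 35) to -0.70 (without female 27) and Bcl6 from 0.28 (without female 31) to 1.23 (without female 35). Beside these values, all 13 mitochondrially encoded genes had positive differences (median 2.54) and all 9 Kupffer cell markers negative ones (median -1.45). Negative differences were also found for 7 of 8 T cell markers (median -2.63), 5 of 6 B and plasma cell markers (median -2.20) and 6 of 8 endothelial markers (median -0.77), as well as 7 of 8 stellate cell markers (median -0.54), while 5 of 6 cholangiocyte markers were positive (median 0.998). Without livers 24, 32 and 33 the medians were 0.21 for mitochondrially encoded genes, -1.82 for Kupffer cell markers and -2.71 for T cell markers. None of these genes was called, and their part was not tested.

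In p16-3MR males, no member and no gene passed in edgeR for GCV against VEH (0% of all genes), and DESeq2 called 5 genes, none a member. An unadjusted p under 0.05 was found for 416 genes, and for 198 without male 26 and 1688 without male 24. Mup20 and Stat5b did not overlap between the groups, and 6.4% of all genes did not. Mup20 had a difference of -2.85 (SE 1.05, adjusted p = 1), with GCV-treated males at 460, 61.3 and 2356 CPM below VEH-treated males at 2739, 11523 and 6501 CPM. Limma-voom with sample quality weights called it at -4.06 (adjusted p = 0.0148), and its value ranged from -4.73 to -2.27 over all alternatives. Stat5b had 24.4, 32.7 and 34.4 CPM after VEH and 19.6, 13.6 and 20.9 CPM after GCV, a difference of -0.76 (SE 0.31, adjusted p = 1). Kupffer cell marker sums were 223 to 2701 CPM after VEH and 294 to 5042 CPM after GCV. Differences were positive for 8 of 9 Kupffer cell markers (median 0.98), 7 of 8 T cell markers (median 0.91), 6 of 6 B and plasma cell markers (median 1.18) and 6 of 6 cholangiocyte markers (median 1.39). Without livers 24, 32 and 33 the medians were 1.62 for Kupffer cell markers and 2.85 for T cell markers. None was called, and their part was not tested.

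Cish had 6.53, 5.36 and 7.97 CPM in VEH-treated males and 12.5, 7.12 and 22.5 CPM in GCV-treated males, a difference of 1.07 (SE 0.54, adjusted p = 1). With single livers left out this difference ranged from 0.56 to 1.35. Cux2 was at 2.67 (SE 1.12, adjusted p = 1) on 15 counts in the VEH group, most of the GCV counts being those of male 30, and limma-voom with sample quality weights called it at 6.15 (adjusted p = 0.0325). In edgeR its value was 0.42 without male 30 and 7.78 without male 24 (adjusted p = 0.491). The other 6 members lay between -1.12 (Mup3) and 0.13 (Igf1), and with single livers left out Mup3 ranged from -4.02 (without male 34) to -0.56 (without male 32).

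The response of p16-3MR females minus that of males was tested directly. No member passed, and neither did any other gene in edgeR (0%), while DESeq2 called 3 genes, none a member. An unadjusted p under 0.05 was found for 822 genes, and for 483 without male 25 and 1845 without male 24. Mup20 was at 2.94 (SE 1.44, adjusted p = 0.976), Socs2 at 2.15 (SE 1.34, adjusted p = 0.976), which was -0.03 without liver 33, Cux2 at -1.12 (SE 1.42, adjusted p = 1.00) and Igf1 at 1.12 (SE 0.85, adjusted p = 0.984). Cish was at 1.02 (SE 0.76, adjusted p = 0.982), and at -0.062 without livers 24, 32 and 33. With single livers left out, Mup20 ranged from 2.35 to 4.82.

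Wild-type mice served as the control for effects of GCV that need no transgene. In females no member passed (0.00791% of all genes, 1 gene, did), and Mup3 was the member nearest to it. It had 2493, 2615 and 2326 CPM after VEH and 3060, 3222 and 3230 CPM after GCV, without overlap, which 10% of all genes showed. The difference was 0.36 (SE 0.10, adjusted p = 0.612), and it passed in a fit of the 6 female livers alone at 0.35 (adjusted p = 0.0201). In that fit 44 of the 12643 genes passed. DESeq2 called 17 genes for GCV in these females, none a member. Cish had 48.5, 11.5 and 45.6 CPM after VEH and 15.4, 15.8 and 21.5 CPM after GCV, a difference of -0.996 (SE 0.55, adjusted p = 1).

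In wild-type males no member and no gene passed in edgeR (0% of all genes). An unadjusted p under 0.05 was found for 640 genes, and for 1224 without VEH-treated male 1. DESeq2 called 1 gene, which was not a member, and no member's groups were free of overlap (8.85% of all genes were). Cish had 47.1, 8.31 and 8.71 CPM after VEH and 60.4, 26.5 and 12.2 CPM after GCV, a difference of 0.66 (SE 0.56, adjusted p = 0.905). The members lay between -0.06 (Mup3) and 1.48 (Cux2, SE 1.31). Without VEH-treated male 1, 46 genes passed, none of them a member. Female minus male responses did not pass for any member (1 gene of all, 0.00791%, did, and 17 without VEH-treated male 1), with Cish at -1.66 (SE 0.79, adjusted p = 0.982) and Mup3 at 0.42 (SE 0.14, adjusted p = 0.982). With single livers left out, the response difference of Cish ranged from -2.93 to -0.93. No gene of the receptor signalling, IGF system, regulator or sex-biased lists passed for GCV in either sex or table in edgeR.

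Liver-to-liver patterns were described by correlating deviations from group means over the 12 livers of a table. These points share each library's depth and composition. For Igf1 the most alike of 12409 genes were Grtp1 (Pearson r = 0.98), Mars (0.97) and Top1mt (0.97), and for Socs2 they were Prkd2 (0.96), Adamts6 (0.92) and Zfp738 (0.92), both sets with liver 33 far from its group. For Mup20 they were Perp, Hspb8 and Mgst1 (0.99 each) in p16-3MR livers, and Laptm5, Gbp8 and Sfxn5 (0.88 each) among 8613 genes in wild-type livers.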

How the data were processed

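The authors trimmed adapters with Trim Galore, quantified transcripts with Salmon against a mouse index (mm10 by the submitters' processing notes), summed them to genes with tximport and left out genes under 3 reads. The authors deposited an estimated count per gene and liver, as whole numbers from which no depth scaling had been made. In the p16-3MR table, 21698 of 21755 Ensembl IDs matched a symbol in GENCODE vM21 (GRCm38). Every label of the wild-type table lacks certain lower-case letters, among them g, l and o. Of its 12643 labels, 10496 matched 1 symbol with those letters removed, 2067 matched several and 80 none.

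Each table was fitted on its own with edgeR 4.0.16 in R 4.3.3, with TMM scaling and 1 mean per group over its 12 livers. The quasi-likelihood F test was used, p-values were adjusted by Benjamini and Hochberg over the whole table, and an adjusted p under 0.05 was a call. CPM and log2 CPM (prior count 2) use TMM-scaled library sizes. Floors of 3 counts (0.293 to 2.32 CPM in p16-3MR livers, 0.516 to 0.943 CPM in wild-type livers) cover counting error only. Since the labels do not say that each liver of a group came from its own cage or litter, p-values measure only the spread between these samples.

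The alternatives were DESeq2 1.42.0, DESeq2 size factors in edgeR, filterByExpr, limma-voom (limma 3.58.1) with sample quality weights, an adjusted p under 0.1, fits of only the livers compared, a prior count of 0.5, a replicate block in wild-type mice and omission of each liver singly. The fit without livers 24, 32 and 33 was added after the data were seen. The members and gene lists were chosen with earlier results of these data known. All members were described, any Mup gene could be given, and up to 4 genes were named per further list, by size of the log2 fold change among those called with a mean of at least 10 counts. The code was tested on simulated data with 1 common spread and changes between the sexes. At a log2 change of 2, 57% of 100 changed genes were called in simulated p16-3MR livers and 100% in wild-type livers. At a log2 change of 4, 100% were called in both. No change between GCV and VEH was simulated, so recovery in those smaller groups is not known. Of the receptor signalling genes called in wild-type livers, 1 is not reported here by name.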

Additional observations from a re-analysis of the deposited data

How the results depend on the processing

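Of 52 log2 fold changes of the members, 44 kept their direction under every alternative, and 39 kept their side of the threshold. In p16-3MR livers, the number of members called for GCV was 1 in females with DESeq2 (0 in edgeR) and 2 in males with limma-voom (0 in edgeR). Between VEH-treated females and males it was 1 in edgeR, 2 with DESeq2, with limma-voom and with only the livers compared, 3 without livers 24, 32 and 33, and 0 to 2 with single livers left out (0 without 27, 28 or 29). All genes called there numbered 26 in edgeR, 99 with DESeq2, 154 with limma-voom and 59 with only the livers compared. They numbered 120 without livers 24, 32 and 33, and 17 to 35 with single livers left out. Between GCV-treated females and males the number of members called was 0 in edgeR, 1 at an adjusted p under 0.1, with limma-voom and without livers 24, 32 and 33, 2 with DESeq2, and 0 to 1 with single livers left out (1 without liver 32). All genes called there numbered 21 in edgeR, 27 at an adjusted p under 0.1, 131 with DESeq2 and 77 with limma-voom. They numbered 50 without livers 24, 32 and 33, and 7 to 24 with single livers left out. All genes called between the sexes over both treatments numbered 66 in edgeR, 200 with DESeq2, 215 with limma-voom and 178 without livers 24, 32 and 33. For GCV in p16-3MR females 0 genes became 86 with DESeq2 and 7 with limma-voom, and in males 0 became 5 and 145. With single wild-type livers left out, genes called for GCV ranged from 0 to 12 in females (12 without VEH-treated female 5) and from 0 to 46 in males, and those of the response difference from 0 to 17 (46 and 17 without VEH-treated male 1).

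Some differences that had not passed turned direction. Without livers 24, 32 and 33, Socs2 was at -0.26 for GCV in females and at -0.35 for the female minus male response (-1.13 with limma-voom), Cish was at -0.062 for that response, and Stat5b was at -0.050 between the sexes. With single livers left out, Socs2 ranged from -0.28 to 2.41 for GCV in females and from -0.032 to 2.83 for the response difference, Igf1 from -0.36 to 0.50 for GCV in males, and Stat5b from -0.033 to 0.17 between the sexes. In wild-type livers, Cish between the sexes was at 0.37 with limma-voom and from -0.25 to 0.58 with single livers left out. For GCV in wild-type males, Cish ranged from -0.063 to 1.94 and Mup3 from -0.15 to 0.061. The cause was not tested.

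Wild-type replicate numbers were not treated as pairs in the main fit. Deviations from group means of same-numbered livers correlated at -0.04, -0.06 and 0.002 in females and at 0.20, 0.28 and -0.07 in males. Differently numbered livers correlated at -0.045 to 0.085 in females and at -0.35 to 0.17 in males. So few correlations cannot decide whether the numbers mark pairs. With the replicate block, genes called for GCV went from 1 to 106 in females, 2 of them members (Cish -0.89, Mup3 0.36), and from 0 to 68 in males, 1 of them a member (Cish 0.79). Mup3 was also the 1 member called in a fit of only the female livers, where 44 genes passed in all. Cux2 rested on few counts in males, and a floor of 2.32 CPM in liver 33 covers its Mup20 value. Labels shared by several wild-type genes left 5 members unassigned there.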

Other observations

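Mup5, another urinary protein gene, whose last 300 bases are 94% identical to those of Mup4, lay in opposite directions in the pair of tables. In p16-3MR livers it had 0 to 0.579 CPM in females and 0.0976 to 19.3 CPM in males, a log2 fold change of -5.29 (SE 1.05) that did not pass in edgeR (adjusted p = 0.0597). In wild-type livers it had 4.74 to 9.40 CPM in females and 2.75 to 4.37 CPM in males, at 0.96 (SE 0.24, adjusted p = 0.0123). The values are low, the female p16-3MR levels are at or near the floor of 3 counts, and the difference between the tables was not tested.

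Mup3 took a larger share of Mup counts than Mup20 in every p16-3MR female and a smaller share in every p16-3MR male but 34. In p16-3MR females Mup3 held from 0.135% of Mup counts (female 31) to 39.4% (female 35), while wild-type females lay between 4.82% and 7.52%. These shares are given as values, and reads divided between near-identical copies could move them.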
